A study of Mus musculus with 18 samples.

Results

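The 8 genes described here are Aqp2, Aqp3, Aqp4, Fxyd4, Hsd11b2, Scnn1a, Scnn1b and Scnn1g, which mark the principal cell of the renal collecting duct and were taken by gene name from the 55401 genes of the deposited tables. They were followed pool by pool in RNA of thick ascending limb (TAL) of the loop of Henle, a segment that lies upstream of the collecting duct. The labels put 18 pools into 4 groups. WT CTAL and WT MTAL, the cortical and the medullary limb of Cldn10 fl/fl littermates without Cre, had 5 pools each, cKO CTAL had 5 pools and cKO MTAL had 3 pools of Cldn10 fl/fl mice that also carried Ksp-Cre. Every mouse was an adult male of strain C57BL/6J by the labels, and each pool held 150 to 200 hand-dissected structures of a single mouse. Cre is driven by the Ksp-cadherin promoter in the distal nephron, and deletion in segments other than the TAL was not measured here. Cldn10 encodes claudin-10, a tight junction protein of the TAL.

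Principal cells reabsorb water under vasopressin and sodium under aldosterone. Water enters across the apical membrane through aquaporin-2 (Aqp2), which vasopressin moves to the cell surface, and leaves across the basolateral membrane through aquaporin-3 (Aqp3) and aquaporin-4 (Aqp4). Sodium enters through the epithelial sodium channel ENaC, built from an alpha (Scnn1a), a beta (Scnn1b) and a gamma (Scnn1g) subunit, and leaves through the Na+,K+-ATPase, which the small membrane protein encoded by Fxyd4 (CHIF) regulates. 11-beta-hydroxysteroid dehydrogenase type 2 (Hsd11b2) inactivates glucocorticoids and so keeps the mineralocorticoid receptor selective for aldosterone. The pools can show which of these transcripts rose and fell together from pool to pool and which did not, but not which cells they came from.

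On mouse build GRCm38 (mm10), Aqp2 lies at chr15:99579055-99584547 (+ strand), Aqp3 at chr4:41092722-41098183 (- strand), Fxyd4 at chr6:117933559-117937692 (- strand), Hsd11b2 at chr8:105518755-105523988 (+ strand) and Scnn1a at chr6:125320659-125344943 (+ strand). Scnn1g at chr7:121734479-121768475 and Scnn1b at chr7:121865038-121918514 are neighbours on the + strand, 96562 bases apart with 1 annotated gene wholly between them. Scnn1b overlaps Cog7 and Aqp4 overlaps an antisense gene, each on the other strand. Whether counting used strand is not given in the sources used here, so reads of these partners may be included. Fxyd4 overlaps the microRNA gene Gm25535 on its own strand, which counting by strand would not separate. The 250 bases before the start of 4 genes are printed from RefSeq (GRCm38.p6), because Aqp3 was the gene whose levels went most closely with Aqp2, and Scnn1b and Scnn1g went most closely with each other. Each is read 5′ to 3′ on the strand of its gene. Capitals mark matches, on either strand, to 5 short motifs: TGACG, the half-site of the cyclic AMP response element, GATAA, the motif of GATA factors, TATAA, the core of the TATA box, AGAACA, a steroid receptor half-site, and CACGTG, an E-box.
Aqp2, chr15:99578806-99579055: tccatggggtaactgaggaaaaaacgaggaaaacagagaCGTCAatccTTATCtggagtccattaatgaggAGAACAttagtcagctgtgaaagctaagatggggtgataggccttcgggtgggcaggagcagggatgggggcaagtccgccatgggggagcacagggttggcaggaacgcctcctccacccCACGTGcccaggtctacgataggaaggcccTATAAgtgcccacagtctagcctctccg
Aqp3, chr4:41098184-41098433: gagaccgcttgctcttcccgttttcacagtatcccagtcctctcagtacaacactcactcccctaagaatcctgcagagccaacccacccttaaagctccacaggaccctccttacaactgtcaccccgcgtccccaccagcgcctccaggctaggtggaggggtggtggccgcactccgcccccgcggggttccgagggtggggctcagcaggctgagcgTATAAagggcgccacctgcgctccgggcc
Scnn1b, chr7:121864788-121865037: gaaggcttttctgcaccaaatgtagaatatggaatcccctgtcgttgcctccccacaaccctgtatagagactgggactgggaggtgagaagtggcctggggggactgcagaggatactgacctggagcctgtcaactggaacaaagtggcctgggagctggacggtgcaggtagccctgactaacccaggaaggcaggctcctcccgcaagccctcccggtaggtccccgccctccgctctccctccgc
Scnn1g, chr7:121734229-121734478: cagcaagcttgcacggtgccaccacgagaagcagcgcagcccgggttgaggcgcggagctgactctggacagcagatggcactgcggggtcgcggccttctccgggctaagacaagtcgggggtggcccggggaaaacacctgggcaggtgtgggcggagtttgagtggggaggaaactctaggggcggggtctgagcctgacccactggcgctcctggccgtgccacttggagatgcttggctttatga
All 5 motifs occurred in the Aqp2 window, the TATA motif alone in that of Aqp3, and none of the 5 in those of Scnn1b and Scnn1g. Over all 32851 RefSeq windows of this length, 17.8% held TGACG, 22.6% GATAA, 22.8% TATAA, 16.1% AGAACA and 6.02% CACGTG. These are matches of letters and were not tested as binding sites.

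Total estimated counts per pool ranged from 10824299 to 62339939, and the lowest count of any of the 8 genes in any pool was 20 (Fxyd4, cKO CTAL pool 21). Slc12a1, the apical Na+-K+-2Cl- cotransporter that defines the TAL, ranged from 11424 to 16145 CPM (counts scaled to the same library size in every pool) over the 18 pools. The targeted Cldn10 was 384 to 579 CPM in WT CTAL and 653 to 810 in WT MTAL against 156 to 185 CPM in cKO CTAL and 151 to 295 in cKO MTAL, so it was reduced but not absent, and every cKO pool was below every WT pool. The authors kept only cKO pools with lower Cldn10 than WT, and left out a cKO CTAL pool with Cldn10 near that of WT CTAL. This separation was therefore set in part by the choice of pools. Some cKO MTAL pools were also left out by the authors after quality controls. Slc12a3, the thiazide-sensitive cotransporter of the distal convoluted tubule, reached 60.2 CPM in the cKO CTAL pool with most of it. Xist, an RNA of female cells, was 6.50 to 8.77 CPM in 7 pools (4 WT MTAL, 2 WT CTAL and 1 cKO CTAL) and at most 0.738 CPM in the other 11, although every mouse is labelled male. The Y-linked Ddx3y (23.6 to 38.7 CPM), Uty (14.2 to 26.8), Eif2s3y (20.9 to 39.3) and Kdm5d (15.4 to 32.6) were present in all 18 pools. With Xist as a covariate, genes called in cKO MTAL against WT MTAL, where 4 of 5 WT pools and 0 of 3 cKO pools had it, fell from 845 to 46, members called stayed at 0, and members under an unadjusted p of 0.05 went from 5 to 7. Between WT MTAL and WT CTAL members called went from 2 to 3, where Scnn1g joined, while genes called went from 800 to 593 of 11650. In bulk RNA, a change in the number of principal cells and a change in the RNA of each cell cannot be told apart. WT CTAL pool 1 carries a knock-out genotype label beside a wild type pool name and is used as WT, with the other reading tried as well.

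The apical water channel Aqp2 was detected in every pool. In WT CTAL it stood at 50.0, 95.1, 73.9, 104 and 44.4 CPM in pools 1, 10, 22, 3 and 8, and in cKO CTAL at 89.6, 27.8, 74.2, 37.5 and 104 CPM in pools 2, 21, 4, 7 and 9. In WT MTAL it stood at 147, 25.3, 42.9, 19.5 and 32.9 CPM in pools 11, 13, 15, 17 and 19, and in cKO MTAL at 40.2, 50.4 and 551 CPM in pools 16, 18 and 20. The 4 groups overlapped, and WT MTAL pool 11 and cKO MTAL pool 20 were far above the other pools of their groups. The highest pool held 28.3 times the Aqp2 of the lowest.

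Aqp3, a basolateral channel for water and glycerol, followed a similar order of pools. It was 20.2, 34.8, 39.7, 30.2 and 18.5 CPM in WT CTAL pools 1, 10, 22, 3 and 8, and 53.3, 14.3, 23.2, 15.9 and 59.3 CPM in cKO CTAL pools 2, 21, 4, 7 and 9. It was 57.2, 7.83, 18.01, 10.6 and 13.3 CPM in WT MTAL pools 11, 13, 15, 17 and 19, and 19.3, 14.9 and 164 CPM in cKO MTAL pools 16, 18 and 20. WT MTAL pool 11 and cKO MTAL pool 20 again stood highest in the medullary groups.

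Aqp4, the other basolateral water channel, differed from this pattern in the cortical groups. It lay within a narrow band of 5.84 to 7.22 CPM in the 5 WT CTAL pools (6.47 ± 0.52, SD). In cKO CTAL it was 4.33, 2.21, 4.21, 2.94 and 4.68 CPM in pools 2, 21, 4, 7 and 9, so that every cKO pool was below every WT pool. In WT MTAL it was 26.7, 2.51, 10.9, 6.62 and 10.1 CPM in pools 11, 13, 15, 17 and 19, and in cKO MTAL 3.16, 5.18 and 50.6 CPM in pools 16, 18 and 20. The medullary groups overlapped each other and both cortical groups.

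The pump regulator Fxyd4 was the lowest of the 8 by group median in CPM. The 5 WT CTAL pools lay between 1.79 and 5.37 CPM, the cKO CTAL pools between 1.003 and 5.46 and the WT MTAL pools between 1.33 and 8.66, and it was 1.62, 1.78 and 12.8 CPM in cKO MTAL pools 16, 18 and 20. Hsd11b2 was 27.8, 36.3, 49.1, 53.4 and 29.1 CPM in WT CTAL pools 1, 10, 22, 3 and 8, and 93.4, 17.7, 32.6, 22.8 and 82.7 CPM in cKO CTAL pools 2, 21, 4, 7 and 9. It was 72.7, 10.1, 24.7, 14.7 and 14.8 CPM in WT MTAL pools 11, 13, 15, 17 and 19, and 25.7, 19.2 and 155 CPM in cKO MTAL pools 16, 18 and 20. For both genes the groups overlapped, with WT MTAL pool 11 and cKO MTAL pool 20 at the top of their groups.

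The 3 ENaC subunits did not share a single pattern. Scnn1a was 519.9, 426, 524, 474 and 481 CPM in WT CTAL pools 1, 10, 22, 3 and 8 and 314, 258, 286, 305 and 301 CPM in WT MTAL pools 11, 13, 15, 17 and 19, with no overlap. It was 633, 456, 391, 482 and 446 CPM in cKO CTAL pools 2, 21, 4, 7 and 9, and 297, 418 and 377 CPM in cKO MTAL pools 16, 18 and 20. Its highest pool, cKO CTAL 2, held 2.46 times its lowest, WT MTAL 13, and cKO MTAL pool 20 was not its highest medullary pool.

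Scnn1b was 7.04, 10.5, 16.7, 18.2 and 7.99 CPM in WT CTAL pools 1, 10, 22, 3 and 8, and 22.9, 5.76, 6.90, 8.12 and 27.7 CPM in cKO CTAL pools 2, 21, 4, 7 and 9. It was 9.13, 4.17, 6.51, 4.03 and 4.46 CPM in WT MTAL pools 11, 13, 15, 17 and 19, and 5.59, 3.999 and 47.8 CPM in cKO MTAL pools 16, 18 and 20. For Scnn1g the WT CTAL pools lay between 5.72 and 14.6 CPM, the cKO CTAL pools between 4.11 and 22.4 and the WT MTAL pools between 2.15 and 7.39, and it was 4.19, 3.06 and 35.3 CPM in cKO MTAL pools 16, 18 and 20. Both peaked in cKO MTAL pool 20, whose Scnn1a lay between those of the other cKO MTAL pools.

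**Figure D1:**
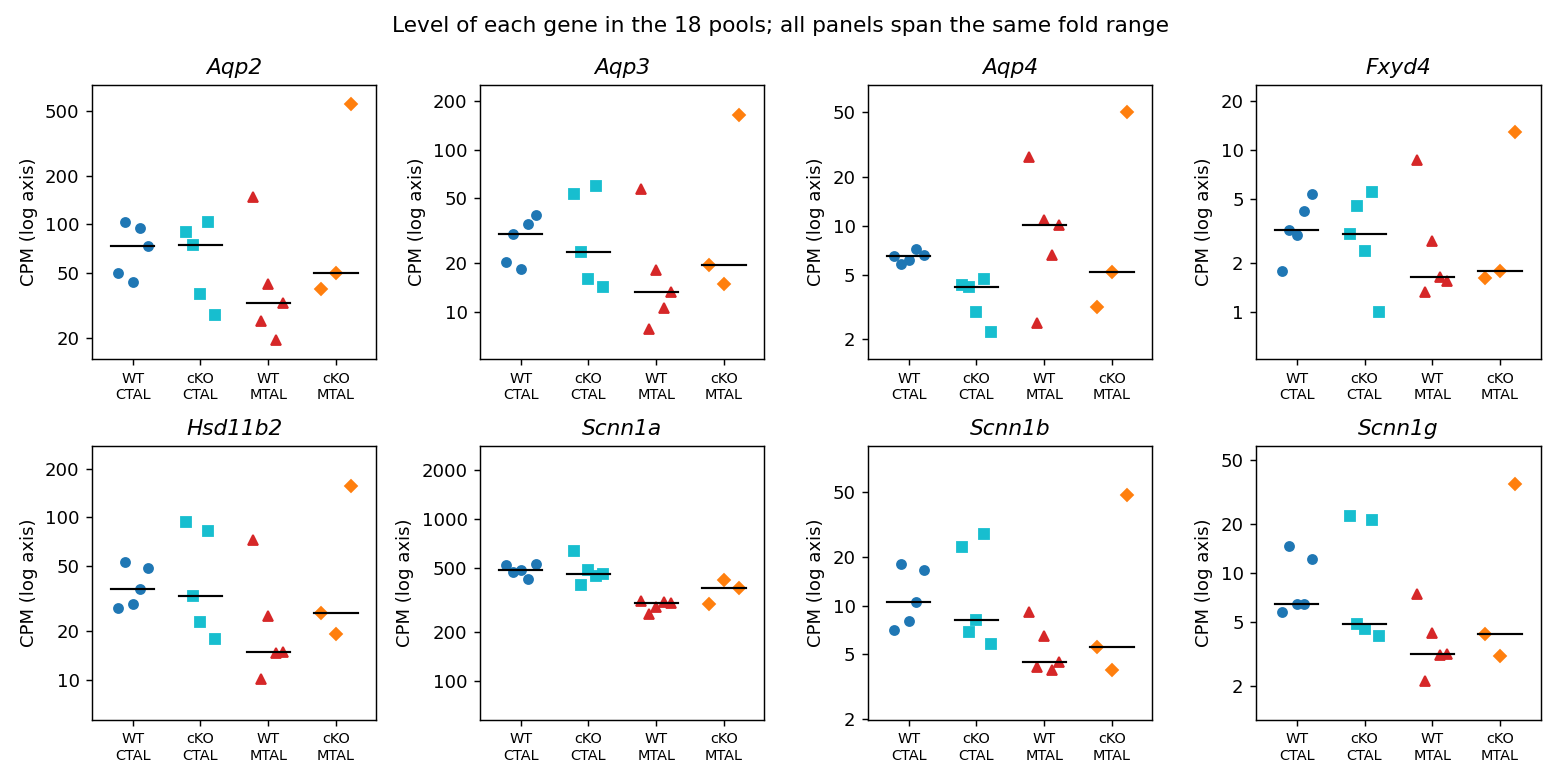
Level of each of the 8 genes in CPM on a log axis (vertical) in the 4 groups (horizontal), with 1 point per pool and a bar at the group median. cKO MTAL pool 20 is the highest of all 18 pools for 7 genes (551 CPM of Aqp2), whereas Scnn1a lies between 258 and 633 CPM throughout.

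Per transcript length the genes could be set beside each other on the TPM scale. The alpha subunit was the most abundant by group median, at 167 TPM in WT CTAL, 172 in cKO CTAL, 97.5 in WT MTAL and 141 in cKO MTAL. Aqp2 came next with 64.1, 76.7, 28.4 and 52.4 TPM in the same groups. Hsd11b2 followed with 28.0, 25.6, 10.01 and 18.9 TPM and Aqp3 with 21.1, 22.9, 9.20 and 14.3 TPM, and these neighbours overlapped in range in every group. Fxyd4, Scnn1b, Scnn1g and Aqp4 had group medians between 1.25 and 7.40 TPM. Scnn1a exceeded Scnn1b 38.2-fold in the median pool on this scale, from 5.48-fold in cKO MTAL pool 20 to 72.9-fold in cKO MTAL pool 18. It exceeded Scnn1g from 8.24-fold to 110-fold in the same pair of pools. The ratio of alpha to the other subunits was therefore lowest in the pool with most Aqp2.

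The first comparison, cKO MTAL with WT MTAL, addresses the effect of the deletion in the medullary limb. No member passed an adjusted p of 0.05 by edgeR's quasi-likelihood test, of the 7 that were tested (Fxyd4 was below the filter on low counts), where 7.01% of 12060 genes did. At an unadjusted p under 0.05 the test gave 5 of the 7, where 23.6% of all genes were under it. The largest log2 differences were Aqp2 at 2.02 (SE 0.71, adjusted p = 0.0962), Scnn1g at 1.84 (SE 0.63, adjusted p = 0.0847) and Scnn1b at 1.77 (SE 0.59, adjusted p = 0.0799). Aqp3 at 1.65, Hsd11b2 at 1.30, Aqp4 at 0.81 and Scnn1a at 0.32 had adjusted p from 0.124 to 0.55. Single pools set these values. Without cKO MTAL pool 20 the difference was -0.22 for Aqp2, -0.30 for Aqp3, -1.41 for Aqp4, -0.27 for Hsd11b2, -0.22 for Scnn1b and -0.13 for Scnn1g, none of which passed, while Scnn1a stood at 0.30. Without WT MTAL pool 11, Aqp2 (2.84), Aqp3 (2.43) and Hsd11b2 (2.07) passed, where 658 of 11947 genes did. Leaving out cKO MTAL pool 16 passed 4 members, where 661 of 11860 genes passed. Leaving out cKO MTAL pool 18 passed 3 members, where 968 of 11908 genes passed. Without both cKO MTAL pool 20 and WT MTAL pool 11, Aqp2 stood at 0.61 (adjusted p = 0.233). The call depended on the test: the likelihood ratio test of edgeR passed Aqp2, Scnn1b and Scnn1g, where it passed 1304 of 12060 genes, and DESeq2 gave no adjusted p for 5 of the 7 and passed none.

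Of 9 markers of intercalated cells, the other cell type of the collecting duct, 8 were highest of the MTAL pools in cKO MTAL pool 20, and Atp6v0d2 was highest in pool 18 (35.5 against 31.0 CPM). Their summed level was 491.5 CPM in cKO MTAL pool 20, 174 and 189 CPM in the other cKO MTAL pools and 67.7 to 154 CPM in WT MTAL. Of the 6 tested, 3 rose in cKO MTAL: Slc4a9, an anion exchanger, by 3.37, and the proton pump subunits Atp6v0d2 by 1.86 and Atp6v1b1 by 1.39 on the log2 scale. Of the 5 connecting tubule markers, 3 were tested and Klk1 (1.33) and S100g (2.60) rose, and their summed level was 935 to 1304 CPM in cKO MTAL against 380 to 541 in WT MTAL. In the same comparison 5 of 7 endothelial markers fell and 2 of 3 tubular injury markers tested rose. The part of these cells in the members' values was not tested.

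With log2 CPM of Aqp2 as a covariate, the differences of 4 members between cKO MTAL and WT MTAL shrank to near 0. Aqp3 stood at -0.085 (SE 0.22), Hsd11b2 at -0.10 (SE 0.24), Scnn1b at -0.062 (SE 0.39) and Scnn1g at 0.036 (SE 0.41). Scnn1a stood at 0.27 (SE 0.14, adjusted p = 0.29), and Aqp4 turned to -1.26 (SE 0.41, adjusted p = 0.0938). At equal Aqp2, then, Aqp3, Hsd11b2 and the beta and gamma subunits differed between the genotypes by less than 1 SE. With Fxyd4 as the covariate in place of Aqp2, by contrast, Aqp2 (0.85), Aqp3 (0.68) and Hsd11b2 (0.59) passed as higher in cKO MTAL, where 847 of 12060 genes passed in either direction. Scnn1a overlapped between these groups in CPM on TMM-normalized library sizes (exact two-sided Mann-Whitney p = 0.25) but not in TPM or in CPM from total counts (p = 0.0357 by the same exact test, the smallest that 3 against 5 pools can give). Of all genes, 14.4% did not overlap between these groups in CPM. The TPM scale moved the median of all genes by 0.21 on the log2 scale in this comparison.

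In the cortex, cKO CTAL against WT CTAL, none of the 8 genes passed, where 1.22% of 11702 genes did. At an unadjusted p under 0.05 the quasi-likelihood test gave 1, where 11.8% of all genes were under it, and both DESeq2 and the likelihood ratio test passed that gene. It was Aqp4, lower in cKO CTAL by 0.82 on the log2 scale (SE 0.22, adjusted p = 0.0961 by the quasi-likelihood test and 0.0217 to 0.0239 by the other 3). The 5 cKO pools lay below the 5 WT pools, as 1.24% of all genes did, with an exact two-sided Mann-Whitney p of 0.00794 and an adjusted p of 0.257 over all genes. Counted as cKO, WT CTAL pool 1 reduced the difference to -0.65 (adjusted p = 0.321). The separation was as complete in TPM and in CPM from total counts, and the difference with Aqp2 as a covariate was -0.79 (SE 0.19). The other 7 genes had log2 differences between -0.14 and 0.37, with SEs from 0.11 to 0.48. Scnn1a differed by -0.02 (SE 0.11). The summed intercalated cell markers were 278 to 451 CPM in cKO CTAL and 245 to 329 in WT CTAL, and 1 of 8 tested, Atp6v0d2, rose by 1.66. In the same order, summed thin limb markers were 78.5 to 111 and 112 to 233 CPM, and endothelial markers 178 to 268 and 215 to 480. Connecting tubule markers were 2098 to 3559 and 1701 to 2376 CPM, and tubular injury markers 1685 to 4443 and 1369 to 1625. No tested gene of these 4 lists passed. The part of all these cells in the members' values was not tested.

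The comparison of WT MTAL with WT CTAL asks how the normal segments differ. Of 7 members tested, Scnn1a and Scnn1b were lower in WT MTAL and none was higher, where 4.1% of 11650 genes were lower and 6.87% passed in either direction. At an unadjusted p under 0.05 there were 3 of the 7, where 19.1% of all genes were under it. Scnn1a fell by 0.73 on the log2 scale (SE 0.08, adjusted p = 2.63e-05), was lower in 5 of 5 WT MTAL pools than in any WT CTAL pool, as 4.31% of all genes were, and passed in all 10 fits that left out 1 pool. Its rank test, with an exact p of 0.00794, had an adjusted p of 0.108 over all genes. Scnn1b fell by 1.10 (SE 0.31, adjusted p = 0.0431), with an exact rank p of 0.0317 and an adjusted p of 0.229, and Scnn1g stood at -1.18 (SE 0.36, adjusted p = 0.0593). Scnn1g passed by edgeR's likelihood ratio test and by both DESeq2 fits (adjusted p from 0.0124 to 0.0182). The call on Scnn1b was lost in 7 of 10 fits that left out 1 pool, namely WT CTAL 10, 22 or 3 or WT MTAL 13, 15, 17 or 19. Aqp2 (-0.47), Aqp3 (-0.44), Hsd11b2 (-0.52) and Aqp4 (0.80) did not pass.

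Most of this comparison changed when WT MTAL pool 11 was left out. Without it 6 members passed, where 784 of 11555 genes did. All 6 were lower in WT MTAL with adjusted p of 0.0133 or less: Aqp2 by 1.29, Aqp3 by 1.22, Hsd11b2 by 1.29, Scnn1b by 1.33, Scnn1g by 1.51 and Scnn1a by 0.75 on the log2 scale. With Aqp2 as a covariate and all pools, Scnn1a stood at -0.72 (SE 0.09, adjusted p = 0.000188), whereas Scnn1b moved to -0.69 (adjusted p = 0.157) and Scnn1g to -0.78 (adjusted p = 0.158). Aqp3 at -0.044 and Hsd11b2 at -0.16 lay within 1 SE of no difference, and Aqp4 stood at 1.05 (SE 0.32, adjusted p = 0.0608). All 3 connecting tubule markers tested were also lower in WT MTAL, Klk1 by 2.20, S100g by 1.52 and Slc8a1 by 1.16, as were 2 of 6 intercalated cell markers. The connecting tubule sum was 1701 to 2376 CPM in WT CTAL against 380 to 541 in WT MTAL, and the intercalated cell sum 245 to 329 against 67.7 to 154 CPM. Their part in the members' values was not tested.

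Between cKO MTAL and cKO CTAL none of the 8 genes passed the quasi-likelihood test, where 1.75% of 12044 genes did, and 3 were under an unadjusted p of 0.05, where 17.7% of all genes were. DESeq2 passed none, with no adjusted p for 1 of the 8 in its fit with TMM factors, and edgeR's likelihood ratio test passed Aqp4. Aqp4 stood at 2.46 (SE 0.69, adjusted p = 0.092) and Aqp2 at 1.73 (SE 0.71, adjusted p = 0.226). Scnn1a was lower in cKO MTAL by 0.37 without passing (SE 0.16, adjusted p = 0.24). Without cKO MTAL pool 20 the Aqp4 difference was 0.21 and that of Aqp2 was -0.54. No member passed the interaction test either, which asks whether the effect of genotype was unlike in MTAL and CTAL, where 0.286% of 12586 genes did, and 1 (Aqp2) was under an unadjusted p of 0.05, where 14.7% of all genes were. DESeq2 and the likelihood ratio test passed none. Each pair of comparisons that uses the same group shares its pools. Of 32 exact two-sided Mann-Whitney tests of the members' levels over the 4 comparisons, 3 had a p under 0.05 (Aqp4 in the cortex, Scnn1a and Scnn1b between the WT segments), and none was under 0.05 once adjusted over all genes. That share of the tests is near that of all genes, of which 14.4%, 8.16%, 13.9% and 10.1% had a p under 0.05 in cKO MTAL against WT MTAL, cKO CTAL against WT CTAL, WT MTAL against WT CTAL and cKO MTAL against cKO CTAL.

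**Figure D2:**
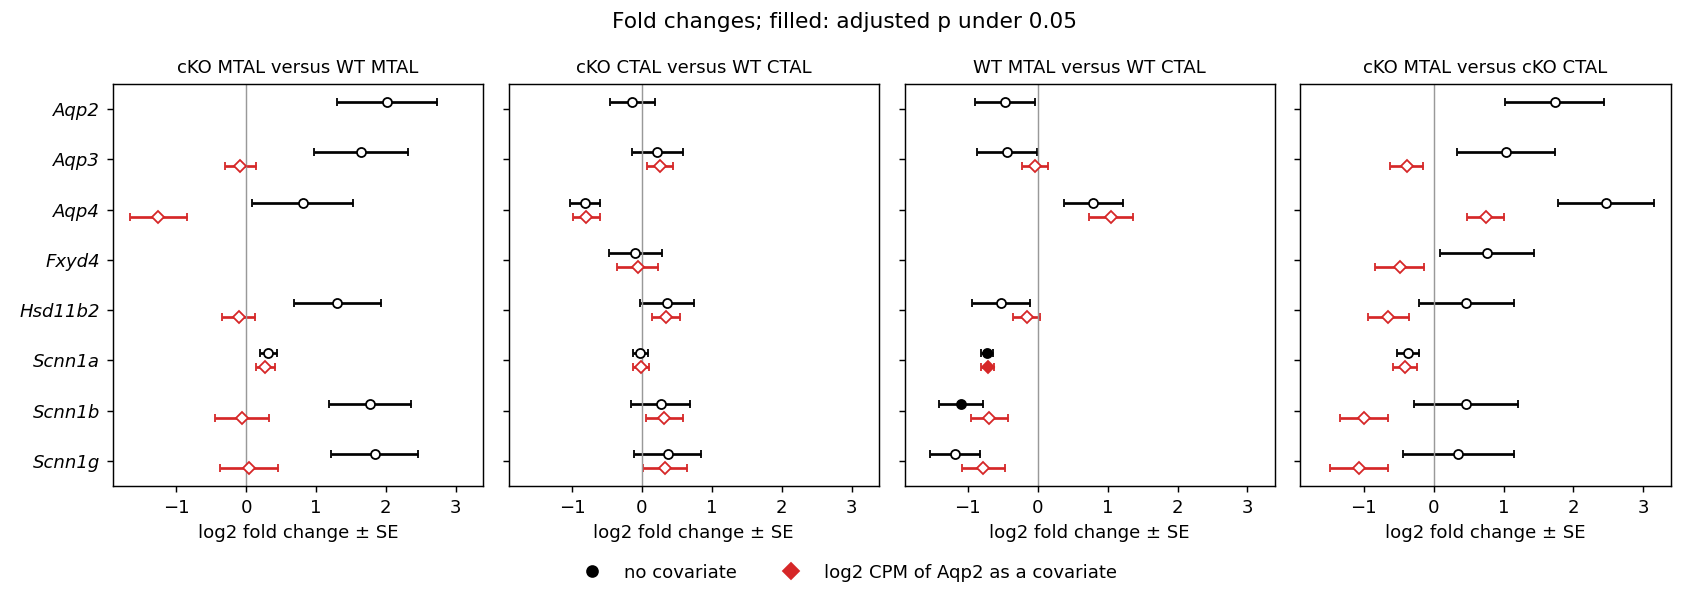
Log2 fold changes (horizontal, bars are ± SE) of the genes (vertical) in the 4 comparisons, first group over second, without a covariate (black circles) and with log2 CPM of Aqp2 as a covariate (red diamonds), filled where the adjusted p was under 0.05. In cKO MTAL against WT MTAL, Aqp3, Hsd11b2, Scnn1b and Scnn1g move from between 1.30 and 1.84 to near 0 with the covariate, and Scnn1a moves only from 0.32 to 0.27.

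Across the 18 pools, 5 of the other 7 members rose and fell with Aqp2. The Pearson r of log2(CPM + 1) with Aqp2 was 0.953 for Aqp3 (Spearman rho 0.922), which ranked 1 among 12585 genes, 0.916 for Hsd11b2 (rho 0.926), which ranked 2, and 0.909 for Fxyd4 (rho 0.893), which ranked 4. For each of these 3 the permutation p of r was 1e-05, the smallest that 100000 resamples can give, and the adjusted p over all genes was 0.0126. Their permutation p for rho was 1e-05, 1e-05 and 3e-05, with adjusted p of 0.0210, 0.0210 and 0.0378. Scnn1b had r = 0.848 (permutation p = 4e-05, adjusted 0.0265; rho 0.796, permutation p = 0.00012, adjusted 0.0944). Scnn1g had r = 0.836 (permutation p = 3e-05, adjusted 0.0210; rho 0.835, permutation p = 5e-05, adjusted 0.0484). Thus 5 of 7 members passed by Pearson's r, where 0.238% of all genes did, and 4 of these, without Scnn1b, by Spearman's rho, where 0.103% did.

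Aqp4 and Scnn1a did not pass. Aqp4 had r = 0.711 (permutation p = 0.00257, adjusted 0.166) and rho 0.420 (permutation p = 0.0832, adjusted 0.752). Scnn1a had r = 0.251 (permutation p = 0.323, adjusted 0.655) and rho 0.300 (permutation p = 0.224, adjusted 0.853), and ranked 2889. Over all genes the median r was near 0 and the top percentile began at 0.675.

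The relation was next taken without the pools of most extreme Aqp2. Without the 2 pools farthest from the median of Aqp2, WT MTAL 11 and cKO MTAL 20, r was 0.905 for Aqp3, 0.887 for Hsd11b2, 0.830 for Scnn1b, 0.820 for Fxyd4 and 0.815 for Scnn1g. It was 0.600 for Scnn1a and 0.182 for Aqp4, so the r of Aqp4 over pools of all 4 groups was low without those 2 pools. Within a segment it was higher, as given below. Without cKO MTAL pool 20 alone, Aqp3 and Hsd11b2 remained past the adjusted threshold and Fxyd4, Scnn1b and Scnn1g did not (adjusted p 0.0755, 0.252 and 0.212, with r of 0.860, 0.755 and 0.756). Within the 10 CTAL pools r ran from 0.745 to 0.868 for these 5 members, with 0.587 for Aqp4 and 0.01 for Scnn1a. Within the 8 MTAL pools it ran from 0.941 to 0.982 for the 5, with 0.864 for Aqp4 and 0.538 for Scnn1a. Without cKO MTAL pool 20 the MTAL values were 0.706 for Aqp4 and 0.312 for Scnn1a. As deviations from the group means, Aqp4 had r = 0.891 (adjusted p = 0.00572) and Scnn1a 0.183 (adjusted p = 0.748).

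**Figure D3:**
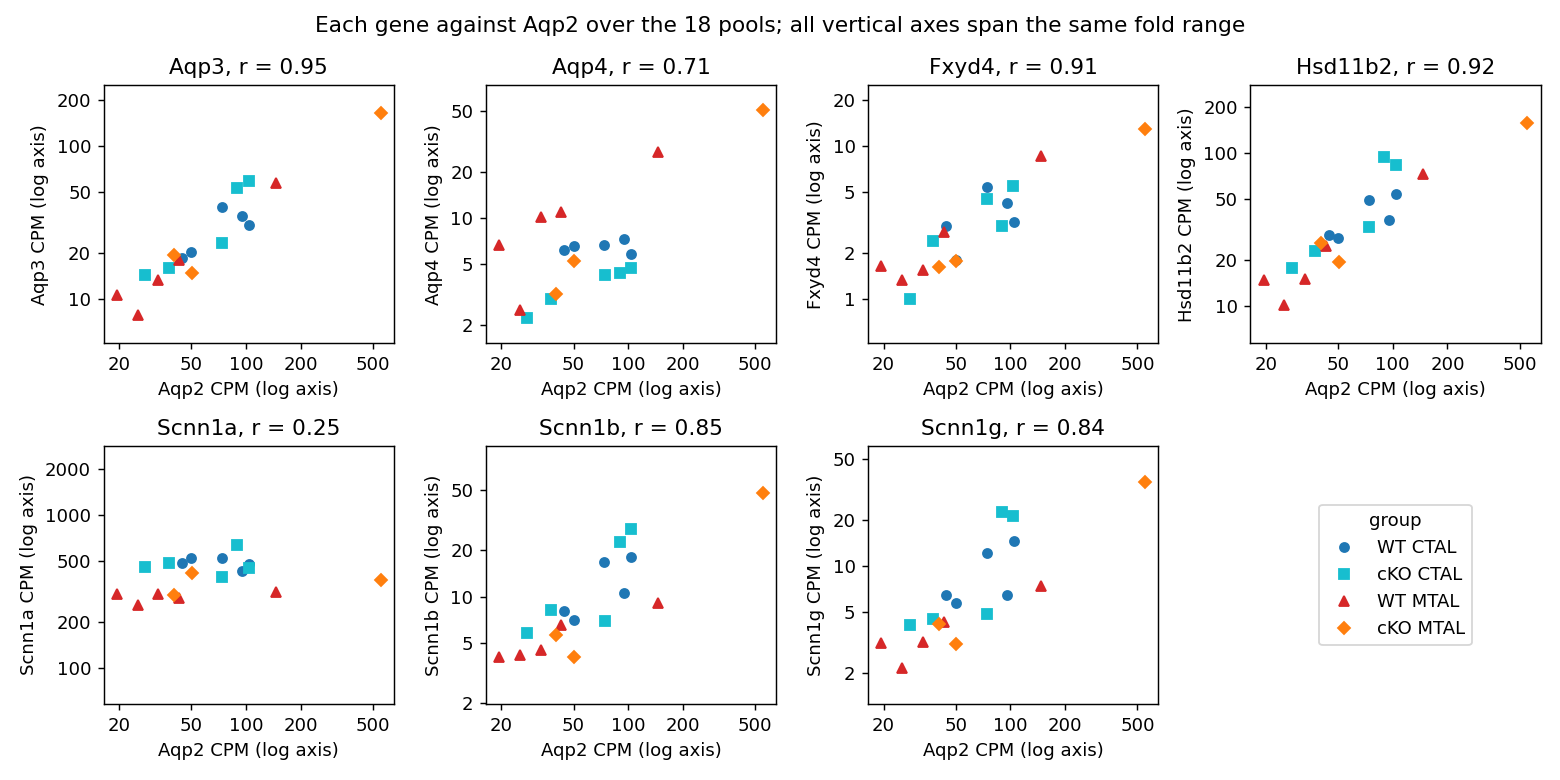
CPM of each of the other 7 genes (vertical, log axis) against CPM of Aqp2 (horizontal, log axis), with 1 point per pool and a symbol per group, and Pearson's r of log2(CPM + 1) above each panel. Aqp3, Fxyd4, Hsd11b2, Scnn1b and Scnn1g climb with Aqp2, 4 of the 5 WT MTAL pools of Aqp4 sit above the other pools of like Aqp2, and Scnn1a stays flat with the CTAL pools above the WT MTAL pools.

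Some members went together more closely with each other than with Aqp2. Scnn1b and Scnn1g, the neighbours on chromosome 7, had r = 0.986 over the 18 pools, and each was the closest of all genes to the other. Aqp3 and Hsd11b2 had r = 0.977, and Hsd11b2 was the closest of all genes to Aqp3. Scnn1a was far from the other channel subunits, with r = 0.488 with Scnn1b and 0.527 with Scnn1g. Over the same 18 pools, the 5 genes outside the members closest to Scnn1a were Tmem52b (r = 0.920), Emp1 (0.915), Arhgap8 (0.911), Mapk4 (0.906) and Casr (0.905), the last of which encodes the calcium-sensing receptor of the TAL. Those closest to Aqp2 were Adh1 (0.911), Tmem150c (0.908), Rhcg (0.903), Ptger1 (0.865) and Slc4a1 (0.865). Rhcg, an ammonia transporter of the collecting duct, led the genes outside the members for Hsd11b2 (0.981), Aqp3 (0.958) and Scnn1g (0.950), and was among the 5 closest for 6 of the 8 members, all but Aqp4 and Scnn1a. For Hsd11b2 it was followed by Bmpr1b, Kit, Tbx2 and Mcoln3, for Aqp3 by Bmpr1b, Tmem150c, Slc4a1 and Tbx2, and for Scnn1g by Insrr, Bmpr1b, Mcoln3 and Kit. Slc4a1, the anion exchanger of acid-secreting intercalated cells, led for Fxyd4 (0.889), before Tmem150c, Ptger1, Rhcg and Zfp637. Insrr led for Scnn1b (0.948), before Rhcg, Bmpr1b, Atp6v1g3 and Mcoln3. Those closest to Aqp4 were Muc20 (0.912), 1700025G04Rik (0.889), Aqp6 (0.884), Rnf215 and Acer2, none of which was among the 5 for another member. These correlations are descriptions over pools of all 4 groups and share the Aqp2-rich pools.

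The ratio of 2 transcripts in a pool does not depend on library size, and a pair that varies only in joint amount keeps it. The ratio of Aqp3 to Aqp2 in CPM lay between 0.290 and 0.595 over all pools, a 2.05-fold range for a 28.3-fold range of Aqp2. The ratio to Aqp2 varied 3.62-fold for Fxyd4, 3.69-fold for Hsd11b2, 4.28-fold for Scnn1b, 4.96-fold for Scnn1g and 7.55-fold for Aqp4. That of Scnn1a varied 24.0-fold, from 0.685 in cKO MTAL pool 20 to 16.4 in cKO CTAL pool 21. Its range was thus close to that of Aqp2 itself.

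Of 28 ratio comparisons between groups, 2 had an exact two-sided Mann-Whitney p under 0.05. The ratio of Aqp4 to Aqp2 was 0.182, 0.0991, 0.254, 0.340 and 0.307 in WT MTAL pools 11, 13, 15, 17 and 19 and between 0.0560 and 0.139 in WT CTAL (exact p = 0.0317, adjusted p = 0.295 over the ratios of all genes, of which 2.03% had a p under 0.05). With a pool left out the exact p of this ratio ran from 0.0159 to 0.0635 and was under 0.05 in 3 of 10 cases, those without WT CTAL 1, WT CTAL 8 or WT MTAL 13. In cKO MTAL it was 0.0786, 0.103 and 0.0918, and in cKO CTAL it was between 0.0450 and 0.0793, so WT MTAL held the 4 highest ratios of all pools. The ratio of Fxyd4 to Aqp2 was lower in cKO MTAL, at 0.0233 to 0.0402, than in WT MTAL, at 0.0472 to 0.0844, with no overlap (exact p = 0.0357), as in 0.448% of the ratios to Aqp2 of all 12059 genes tested. Fxyd4 was below the filter in this comparison, so it is not among those genes and has no adjusted p. The ratio of a gene that does not follow Aqp2 carries the spread of Aqp2, so few such ratios can separate. By level, 13.9% and 14.4% of genes had a p under 0.05, where 2.03% and 0.448% did by ratio. The shares of ratios therefore do not measure how rare a separated ratio is. Without any 1 of the 8 pools the exact p of the Fxyd4 ratio was 0.0571 or 0.0952, the smallest that 3 against 4 or 2 against 5 pools can give.

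**Figure D4:**
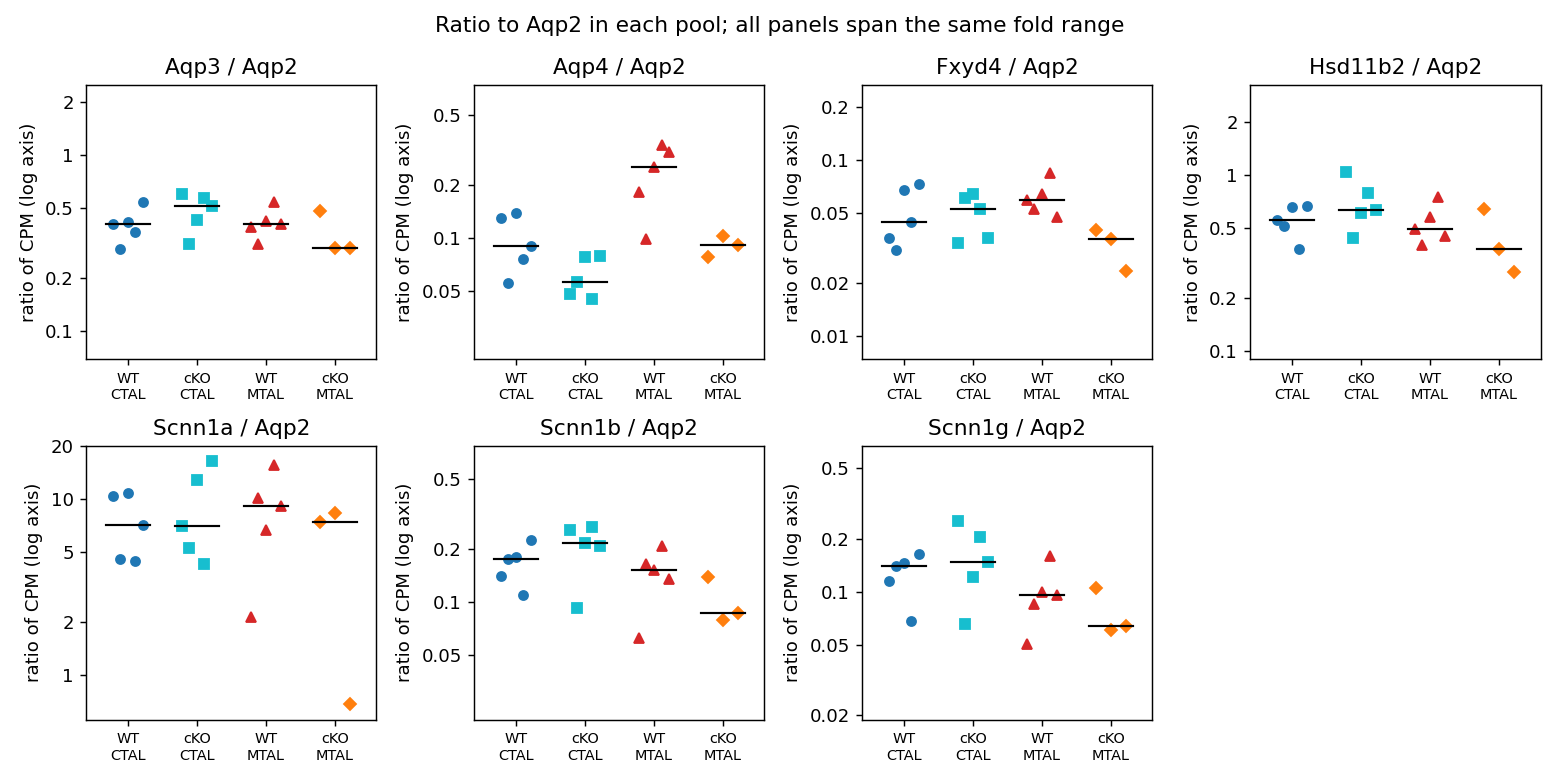
Ratio of the CPM of each gene to that of Aqp2 (vertical, log axis, the same fold range in every panel) in the 4 groups (horizontal), with 1 point per pool and a bar at the group median. Aqp3 keeps within a 2.05-fold range, Aqp4 is highest in WT MTAL by median, and Scnn1a spreads 24.0-fold.

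A least squares line of each gene on Aqp2, with 1 slope and an intercept for each segment, gives the level left where Aqp2 would be 0. For Scnn1a the intercept was 474 CPM in CTAL and 304 CPM in MTAL, which is 98.1% and 95.3% of its mean level, and it stayed within 459 to 484 and 285 to 314 CPM when any 1 pool was left out. For Scnn1b it was 7.12 CPM in CTAL (54.0% of the mean) and 0.899 CPM in MTAL (8.39%), and for Scnn1g 5.68 (55.5%) and 0.444 CPM (5.68%). With any 1 pool left out, the intercept of Scnn1b ran from 5.85 to 7.84 CPM in CTAL and from 0.072 to 1.46 CPM in MTAL, and that of Scnn1g from 3.86 to 6.30 CPM and from -0.746 to 0.769 CPM. For Aqp3 the intercepts were 32.9% and 11.7% of the mean, for Hsd11b2 55.5% and 23.9% and for Fxyd4 53.5% and 36.3%. These 3 rest on cKO MTAL pool 20. Without it the intercept of Aqp3 moved from 10.2 to 2.61 CPM in CTAL and from 4.44 to -0.517 CPM in MTAL, that of Hsd11b2 from 24.7 to 5.52 and from 10.1 to -2.44 CPM, and that of Fxyd4 from 1.81 to -0.138 and from 1.46 to 0.184 CPM. For Aqp4 the intercepts were -0.892 CPM in CTAL and 4.80 CPM in MTAL, and -3.06 and 3.38 CPM without that pool. With Fxyd4 in place of Aqp2 on the horizontal axis, 6 of 14 intercepts were above 0 instead of 13, and those of Scnn1a were 474 and 309 CPM. These lines are descriptions with no test.

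Among other genes of the principal cell, Npnt (r = 0.828, adjusted p = 0.0383) and Gata3 (r = 0.784, adjusted p = 0.0461), a transcription factor of the collecting duct, passed the correlation with Aqp2. The vasopressin receptor Avpr2 (r = 0.565), Apela (0.370) and the transcription factor Tfcp2l1 (0.281) did not, and Elf5 was below the filter. Tfcp2l1 was higher in cKO MTAL than in WT MTAL by 1.03 (SE 0.16, adjusted p = 0.00109) and lower in WT MTAL than in WT CTAL by 0.93 (SE 0.15, adjusted p = 0.000628). Its group medians were 695, 822, 353 and 768 CPM in WT CTAL, cKO CTAL, WT MTAL and cKO MTAL. Among 9 intercalated cell markers 1 passed the correlation, Slc4a1 (r = 0.865, adjusted p = 0.0168). None of 4 connecting tubule markers, 8 TAL markers, 7 endothelial markers or 4 tubular injury markers did.

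None of the 13 regulators of ENaC and the mineralocorticoid pathway that could be tested passed the correlation with Aqp2 over all pools. Their median r was 0.02. The kinase Sgk1 had the highest (0.481) and the glucocorticoid receptor Nr3c1 the lowest (-0.506). Within the MTAL pools the r of Sgk1 was 0.917, and 0.950 without cKO MTAL pool 20, whereas within the CTAL pools it was 0.165. The other regulators ran within the MTAL pools from -0.575 (Nr3c1) to 0.521 (Per1). The values within a segment were not tested. Between groups, Nr3c1 was lower in cKO MTAL than in WT MTAL by 0.50 (SE 0.14, adjusted p = 0.0415), 1 of 13 tested, and the median of the 13 was 0.03. The protease St14 was higher in WT MTAL than in WT CTAL by 0.37 (SE 0.07, adjusted p = 0.00262), 1 of 13, with a median of 0.01. None of the 13 passed in cKO CTAL against WT CTAL or in cKO MTAL against cKO CTAL. The mineralocorticoid receptor Nr3c2 had group medians of 50.2, 44.8, 39.6 and 28.8 CPM in WT CTAL, cKO CTAL, WT MTAL and cKO MTAL and passed in none.

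Of 8 other aquaporins 2 could be tested, and of 6 other FXYD genes 3. Aqp1, the water channel of the proximal tubule and thin descending limb, was higher in WT MTAL than in WT CTAL by 1.501 (SE 0.34, adjusted p = 0.00988) and in cKO MTAL than in cKO CTAL by 2.21 (SE 0.27, adjusted p = 0.00146), with r = 0.071 with Aqp2. Fxyd2, the gamma subunit of the Na+,K+-ATPase, was lower in cKO MTAL than in WT MTAL by 0.80 (SE 0.14, adjusted p = 0.00292) and higher in WT MTAL than in WT CTAL by 0.999 (SE 0.13, adjusted p = 8.51e-05). Its r with Aqp2 was -0.300. Aqp6, an intercalated cell aquaporin, had r = 0.769 with Aqp2 (adjusted p = 0.0790) and passed in no comparison.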

How the data were processed

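Poly-A RNA of 18 pools was sequenced as paired-end, strand-specific libraries. The authors trimmed the reads, aligned and quantified them with Illumina DRAGEN on mouse build mm10 with a GENCODE annotation, and deposited estimated counts per gene, which are rounded here to whole numbers, and TPM values per gene. The labels name FastQC, Trimmomatic, DRAGEN and Picard with no versions. The aligner settings are not given in the sources used here.

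Depth is the total estimated count per pool, 10824299 to 62339939. CPM were computed on TMM-normalized library sizes of all 18 pools. Counts were tested with the quasi-likelihood test of edgeR 4.0.16 in R 4.3.3, after its filter on low counts, on the pools of the groups compared, with Benjamini-Hochberg adjustment over all genes tested and a threshold of 0.05. All pools entered the test of the difference between the genotype effects. In further fits log2 CPM of Aqp2 was a covariate. For single values the Mann-Whitney test was run in its exact, two-sided form, and correlations used log2(CPM + 1) with 100000 permutations, run with scipy 1.17.1. The fits were tested on simulated counts. Alternatives were edgeR's likelihood ratio test, DESeq2 1.42.0 with TMM or its own size factors, limma 3.58.1 on log2(TPM + 0.1) and log2(TPM + 1), no filter, other covariates (Fxyd4, Xist), a single fit of all pools, and each pool left out in turn.

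The 8 genes and the marker lists were chosen with earlier results of these data known. Named genes are the 8, genes of the lists, and for each of the 8 the 5 other genes with the highest Pearson r. Replicate numbers are pool numbers, and no number occurs in more than 1 group. No pair of pools of a group agreed within sampling noise (chi-square per degree of freedom of 16.1 or more). Separate mice are the replicates. Gene IDs matched GENCODE M21 for 99.5% of the rows, and promoter sequences were matched in RefSeq for 5 of the 8 genes, not for Aqp4, Hsd11b2 and Scnn1a.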

Additional observations from a re-analysis of the deposited data

Results flagged for a closer look

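In 24 groups of 5 pools (8 genes in WT CTAL, cKO CTAL and WT MTAL), the gap of the highest or lowest pool to the next was set against the range of the group with Dixon's critical value. Chance exceeds that value in about 1 in 20 groups where the values are normally distributed. The check used CPM and was not run on log values, so that rate may not hold here. The critical value was exceeded 4 times, each time by WT MTAL pool 11 as the highest of its group. This pool stood at 147 CPM of Aqp2 where the next WT MTAL pool had 42.9, at 57.2 CPM of Aqp3 where the next had 18.01, at 8.66 CPM of Fxyd4 where the next had 2.75, and at 72.7 CPM of Hsd11b2 where the next had 24.7. These are genes of a water channel pair, a pump regulator and a steroid enzyme of the same cell, measured in the same pool, so the 4 values are not independent. In the same pool Scnn1a was 314 CPM, against 258 to 305 in the other WT MTAL pools. The cKO MTAL group, with 3 pools, was not put to this check, although pool 20 held 551 CPM of Aqp2 where pools 16 and 18 held 40.2 and 50.4. That no pool of this group was flagged therefore says nothing about it.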

How the results depend on the processing

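No paired analysis was possible because the pool numbers in the labels are not shared between groups. Genes passing out of all tested are given in brackets. The count of members called in cKO MTAL against WT MTAL was 0 by the quasi-likelihood test (845 of 12060). It was 3 by edgeR's likelihood ratio test (1304 of 12060), 5 with no filter on low counts (1399 of 30288), 3 with Fxyd4 as a covariate (847 of 12060) and 2 in a single fit of all pools (2136 of 12586). With a pool left out it ran from 0 to 4: 4 without cKO MTAL 16 (661 of 11860), 3 without cKO MTAL 18 (968 of 11908) and 3 without WT MTAL 11 (658 of 11947). In cKO CTAL against WT CTAL it was 1 instead of 0 (Aqp4) by the likelihood ratio test (331 of 11702) and by DESeq2 with either size factors (360 of 11702), and 0 to 0 with a pool left out. In WT MTAL against WT CTAL it was 1 instead of 2 (Scnn1a) with limma on TPM at either pseudocount (449 and 452 of 11650), with Aqp2 as a covariate (789 of 11650) and in the single fit (860 of 12586). It was 3 (with Scnn1g) by the likelihood ratio test (1005 of 11650), by both DESeq2 fits (1068 and 1069 of 11650) and with Fxyd4 or Xist as a covariate (862 and 593 of 11650), and 1 to 6 with a pool left out. In cKO MTAL against cKO CTAL it was 1 instead of 0 (Aqp4) by the likelihood ratio test (733 of 12044), with no filter (508 of 30195) and in the single fit (688 of 12586), and 0 to 1 with a pool left out. For the difference of the genotype effects it was 0 to 0. With a pool left out, level comparisons with p under 0.05 numbered 2 to 8, ratio comparisons 0 to 2, members correlated with Aqp2 2 to 5 (2 without cKO MTAL 20) and intercepts above 0 9 to 13, and 6 of 14 were above 0 with Fxyd4 on the horizontal axis. The cause of these moves was not tested.
Directions turned in cKO MTAL against WT MTAL with Aqp2 as a covariate (Aqp3 -0.085, Aqp4 -1.26, Hsd11b2 -0.10, Scnn1b -0.062), with Fxyd4 as a covariate (Aqp4 -0.44) and, in an alternative chosen after seeing the data, without both cKO MTAL 20 and WT MTAL 11 (Aqp4 -0.82). In cKO CTAL against WT CTAL they turned for Fxyd4 with limma on TPM (0.17 at both pseudocounts) and for Scnn1a (0.092 at both, 0.018 with Xist as a covariate, 0.023 with WT CTAL 1 counted as cKO, where Scnn1b was -0.0046). In cKO MTAL against cKO CTAL they turned with Aqp2 as a covariate (Aqp3 -0.38, Fxyd4 -0.49, Hsd11b2 -0.65, Scnn1b -0.995, Scnn1g -1.07), with Fxyd4 (Hsd11b2 -0.26, Scnn1b -0.52, Scnn1g -0.61) and with limma (Scnn1b -0.16 and -0.088, Scnn1g -0.11 and -0.037). For the difference of the genotype effects they turned with Aqp2 as a covariate (Aqp3 -0.38, Aqp4 -0.32, Fxyd4 -0.70, Hsd11b2 -0.53, Scnn1b -0.49, Scnn1g -0.46).
With a pool left out, log2 differences in cKO MTAL against WT MTAL ran from -0.22 to 2.84 for Aqp2, -0.30 to 2.43 for Aqp3, -1.41 to 1.40 for Aqp4, -0.27 to 2.07 for Hsd11b2, -0.22 to 2.26 for Scnn1b and -0.13 to 2.32 for Scnn1g. In cKO CTAL against WT CTAL they ran from -0.36 to 0.056 for Aqp2, -0.10 to 0.41 for Aqp3, -0.26 to 0.13 for Fxyd4, -0.14 to 0.043 for Scnn1a, -0.13 to 0.46 for Scnn1b and -0.022 to 0.59 for Scnn1g. In cKO MTAL against cKO CTAL they ran from -0.54 to 2.21 for Aqp2, -0.95 to 1.51 for Aqp3, -1.14 to 0.91 for Hsd11b2, -1.57 to 0.95 for Scnn1b and -1.65 to 0.84 for Scnn1g. For the difference of the genotype effects they ran from -0.076 to 2.99 for Aqp2, -0.51 to 2.22 for Aqp3, -0.60 to 2.22 for Aqp4, -0.77 to 1.70 for Fxyd4, -0.62 to 1.73 for Hsd11b2, -0.47 to 1.99 for Scnn1b and -0.47 to 1.96 for Scnn1g. Of values of single genes under the other settings, 310 kept direction and call, 27 passed newly, 5 no longer passed and 31 turned. Counts of Fxyd4, 20 to 361 per pool, limit what its ratios can show.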
